A study of Homo sapiens with 6 samples.

Results

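The keratin genes were examined after induction of DKK1 in DLD-1, an established cell line from a human colorectal adenocarcinoma. It carries an APC mutation and makes no DKK1 of its own, as described in the study. Members were all probe sets, the groups of probes that stand for a transcript on the array, whose only gene symbol begins with KRT and a digit, without pseudogenes. Of 54 probe sets with such a symbol, 4 belonged to pseudogenes and 1 to an antisense transcript, which left 49 probe sets of 48 keratin genes among 32321 probe sets of the array. They comprised 6 probe sets of 5 simple epithelial keratins, 17 of stratified epithelia, 23 of hair and hair follicle, and 3 that fit none of these classes (KRT23, KRT80 and KRT222). A further 7 of 55 classified keratin genes were not analysed here.

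The first group, DLD-1/DKK1, carried a Tet-On lentivirus from which doxycycline induces DKK1, a secreted inhibitor of Wnt signalling. The second group, DLD-1/Mock, carried the lentivirus without the DKK1 gene. Both groups received doxycycline for a day, at 10 mg/ml by the labels and at the same figure in micrograms per ml by the methods, so that drug and virus were shared by the controls. Each group had 3 dishes on 6 whole-transcript arrays in all. The cells were a bulk transduced population with a green fluorescent reporter in the vector. The methods call the dishes independent. The sources used here do not say whether they stem from 1 transduction or several, and p-values measure the spread between dishes.

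Keratins are the intermediate filament proteins of epithelial cells. An acidic type I keratin pairs with a basic type II keratin, and neither builds a stable filament alone. KRT8 with KRT18 and KRT19 forms the filaments of simple epithelia such as the colon, where KRT20 is known as a marker of differentiated cells at the luminal surface. KRT5 and KRT14 mark the basal layer of stratified epithelia, KRT1 and KRT10 the layers above it, and the hair keratins build the hard shaft. The genes lie in 2 clusters, and here 20 type II genes and the type I gene KRT18 were on chromosome 12 and 27 type I genes on chromosome 17. No other protein-coding gene lay between KRT8 and KRT18 (0 genes in RefSeq, GRCh38.p14).

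The bases ahead of the start site are shown for 6 keratins that the values below turn on, because they show how the promoters differ within the family. Each line gives the 60 bases before the start site, 5′ to 3′ on the gene strand, from RefSeq (GRCh38.p14). All 6 genes lie on the minus strand. The capitals mark the letters ATAAA, the core of a TATA box, where they start between 40 and 20 bases before the start site. Lines without capitals hold no match to these letters in that stretch. Other spellings of a TATA box were not marked, and the KRT39 line holds tatataa.
KRT8, chr12:52926470-52926529: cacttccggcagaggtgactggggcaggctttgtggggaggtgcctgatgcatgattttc
KRT20, chr17:40885243-40885302: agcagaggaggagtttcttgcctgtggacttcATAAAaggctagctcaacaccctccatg
KRT5, chr12:52520395-52520454: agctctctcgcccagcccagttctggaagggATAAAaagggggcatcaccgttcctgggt
KRT79, chr12:52834312-52834371: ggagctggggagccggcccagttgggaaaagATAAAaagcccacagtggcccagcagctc
KRT39, chr17:40966949-40967008: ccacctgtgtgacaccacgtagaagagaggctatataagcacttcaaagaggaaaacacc
KRT33A, chr17:41350829-41350888: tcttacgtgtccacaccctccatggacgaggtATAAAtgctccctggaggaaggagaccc
The match started 28 bases before the start site in KRT20 and KRT33A and 29 bases before it in KRT5 and KRT79.

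Promoter windows of 250 bases before to 50 after the start were found for 33 of the 48 keratin genes, as 37 windows. ATAAA started 40 to 20 bases before the start site on the gene strand in 24 of these 37 windows (64.9%), against 1633 of the 35116 windows of all genes (4.65%). The longer form TATAAA, which always holds ATAAA, was in 16 keratin windows (43.2%), against 809 of all windows (2.3%). By class, ATAAA was there in 17 of 25 windows of hair keratins, 6 of 10 of stratified keratins and 1 of 2 of simple keratins. Over the whole window and on both strands, ATAAA was found in 89.2% of keratin windows and 34.9% of all windows. The motifs were chosen after the sequences were seen, the shares are descriptions, and keratin genes within a cluster are near relatives that share sequence.

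The label check and the arrays are summarised first. DKK1 had log2 values of 12.30, 12.38 and 12.36 in DLD-1/DKK1 cells, against 5.15, 5.74 and 5.01 in DLD-1/Mock cells, with a limma adjusted p of 0.00015. Over all probe sets, 28 passed an adjusted p of 0.05 (0.0866%), of which 12 rose and 16 fell in DLD-1/DKK1. Under median centring 10 rose and 7 fell, and leaving out any 1 array brought the 28 to between 2 and 6. Mock replicate 2 stood apart, with correlations of 0.9953 to 0.9969 to the other arrays, against 0.9973 to 0.9982 among the others. Array medians lay between 6.76 and 6.86. Of 12 colonic epithelial markers, 11 were brighter than 95% of the probe sets of olfactory receptors, genes that colon cells are taken not to use, and KRT20 was the exception. EPCAM, an epithelial adhesion protein, averaged 12.88 in DLD-1/DKK1 and 12.82 in DLD-1/Mock. PTPRC, the pan-leukocyte marker, averaged 4.34 in both.

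No keratin passed the test of DLD-1/DKK1 against DLD-1/Mock. Of 49 keratin probe sets, 0 had an adjusted limma p of at most 0.05, the lowest being 0.499, against 0.0866% of all probe sets (0.0371% higher and 0.0495% lower in DLD-1/DKK1). At an unadjusted p under 0.05 there were 3 keratins (6.12%), against 9.23% of all probe sets. These were KRT13, KRT79 and KRT39, each with lower values in DLD-1/DKK1, against 5.21% of all probe sets in that direction, and 0 keratins had higher values, against 4.02%. This split turned with the scaling. There were 2 keratins with higher and 1 with lower values under median centring (KRT20 and KRT33A higher, KRT13 lower) and under cyclic loess (KRT20 and KRT33A higher, KRT8 lower), and 2 with higher and 3 with lower values after quantile normalisation. The share of all probe sets with an unadjusted p under 0.05 was 11.5%, 8.56% and 8.37% in these settings, in that order. The log2 fold changes, DLD-1/DKK1 minus DLD-1/Mock, ran between -0.19 for KRT13 and 0.095 for KRT33A, and the 95% intervals of all 49 stayed between -0.42 and 0.236. The median SE was 0.0541. In bulk RNA, fewer cells of a type and less RNA per cell cannot be told apart.

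The count of 3 moved with single arrays, and so did the share of all probe sets with an unadjusted p under 0.05. The keratin count was 1 without DLD-1/DKK1 replicate 1 (KRT13), against 5.92% of all probe sets. It was 1 without DLD-1/DKK1 replicate 2 (KRT20), against 6.17%, and 1 without Mock replicate 2 (KRT79), against 7.81%. Without DLD-1/DKK1 replicate 3 and without Mock replicate 1 it stayed at 3, against 9.13% and 9.11%. Without Mock replicate 3 it was 7, against 9.95%. Those 7 were KRT13, KRT33A, KRT39, KRT5, KRT7, KRT79 and KRT83. No keratin passed after adjustment with any array left out.

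KRT8, KRT18 and KRT19, all of simple epithelia, were the bright members. A log2 value of 1 probe set is not strictly comparable with that of another, since probes differ in affinity. Each was placed against the 350 olfactory receptor probe sets, of which 95% lay below 6.05. This is a rough guide that carries the same limit. By this measure 24 keratin probe sets were brighter and 25 were not, and 39 of 49 lay below the median brightness of the array. The simple keratins KRT8, KRT18 and KRT19 lay above all olfactory receptor probe sets. Of the other simple keratins, KRT7 lay above 99.1% of them and KRT20 above 86.6%. The means of stratified keratins ran between 5.11 and 7.65 and those of hair keratins between 4.29 and 6.88. The plot of levels by class shows both groups for each member.

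**Figure D1:**
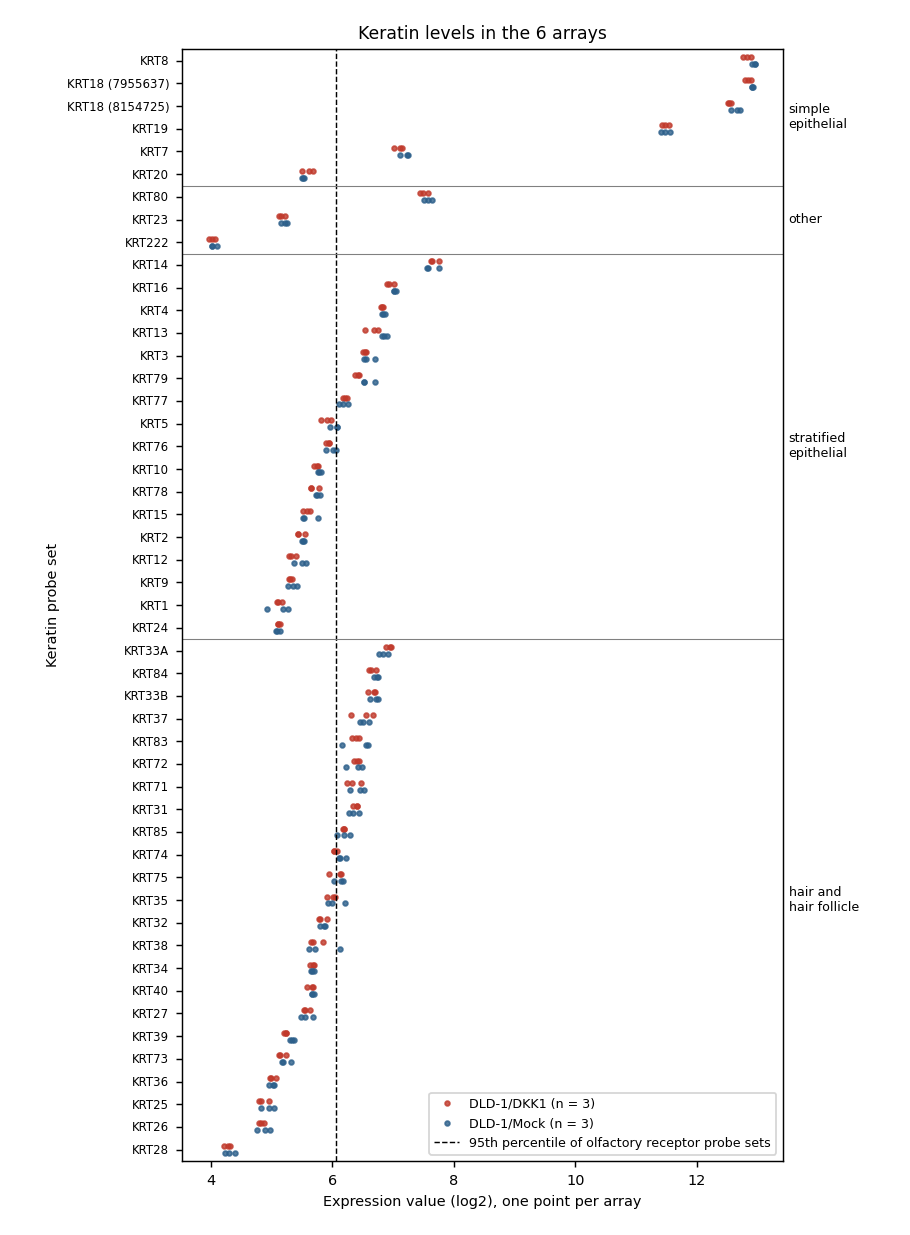
Log2 level of each keratin probe set on the 6 arrays by class, with DLD-1/DKK1 and DLD-1/Mock arrays in different colours and the level below which 95% of olfactory receptor probe sets lie (6.05) as a reference. KRT8, KRT18 and KRT19 stand between 11.40 and 12.96, and the 2 groups lie close together for every member.

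By its member probe sets, the filament pair of the colonic epithelium was slightly lower in DLD-1/DKK1 without passing the test. KRT8, the main type II keratin of simple epithelia, had log2 values of 12.76, 12.83 and 12.89 in DLD-1/DKK1 cells, against 12.96, 12.95 and 12.90 in DLD-1/Mock cells. All 3 DLD-1/DKK1 values lay below all 3 DLD-1/Mock values, by a gap that is small beside the spread within DLD-1/DKK1. The means were 12.83 ± 0.068 in DLD-1/DKK1 and 12.94 ± 0.031 in DLD-1/Mock (SD, n = 3 each). The log2 fold change was -0.11 (SE 0.049, 95% interval -0.23 to 0.0029), a ratio of 0.924, with a limma adjusted p of 0.548.

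KRT18, its type I partner, was measured by 2 probe sets annotated to it alone. The first had 12.79, 12.88 and 12.84 in DLD-1/DKK1 cells, against 12.91, 12.93 and 12.91 in DLD-1/Mock cells, a log2 fold change of -0.080 (SE 0.041, 95% interval -0.18 to 0.019, limma adjusted p 0.592). The second had 12.56, 12.53 and 12.52 in DLD-1/DKK1 cells, against 12.56, 12.70 and 12.66 in DLD-1/Mock cells, a log2 fold change of -0.107 (SE 0.049, 95% interval -0.22 to 0.011, limma adjusted p 0.564). Neither probe set overlapped between the groups, although replicate 1 of DLD-1/DKK1 and of DLD-1/Mock came within rounding of each other in the second. Another probe set, annotated to both MIR622 and KRT18 and so not a member, had a log2 fold change of 0.022 with overlap. KRT8 and KRT18 have many processed pseudogenes of near-identical sequence, so probes may take up signal from copies, and these values are uncertain in that respect. By the exact permutation test, KRT8 and both member probe sets of KRT18 had a two-sided p of 0.1, the smallest that 3 arrays against 3 allow. Any probe set without overlap between the groups, 16.5% of all, has this p, so it adds nothing to the lack of overlap.

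KRT19, a type I keratin without the usual tail domain that also pairs with KRT8, had 11.42, 11.54 and 11.47 in DLD-1/DKK1 cells, against 11.48, 11.56 and 11.40 in DLD-1/Mock cells. The groups overlapped throughout, with a log2 fold change of -0.0042 and a 95% interval of -0.14 to 0.13. Its limma adjusted p was 0.985.

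KRT7, a type II keratin of ducts and glands that colon tumours often lack, had 7.01, 7.11 and 7.14 in DLD-1/DKK1 cells, against 7.24, 7.22 and 7.12 in DLD-1/Mock cells. Its log2 fold change was -0.11 (SE 0.056, 95% interval -0.24 to 0.025, limma adjusted p 0.588), and the groups overlapped through DLD-1/DKK1 replicate 3 and Mock replicate 3.

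KRT20 was dim. Its values were 5.62, 5.50 and 5.67 in DLD-1/DKK1 cells, against 5.50, 5.53 and 5.51 in DLD-1/Mock cells, and 86.6% of olfactory receptor probe sets lay below its mean. Its log2 fold change of 0.087 (95% interval -0.041 to 0.216, limma adjusted p 0.634) was the 1 value above 0 among the 6 simple epithelial probe sets. Replicates 1 and 3 of DLD-1/DKK1 lay above all DLD-1/Mock values and replicate 2 among them. The plot of single arrays shows these members.

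**Figure D2:**
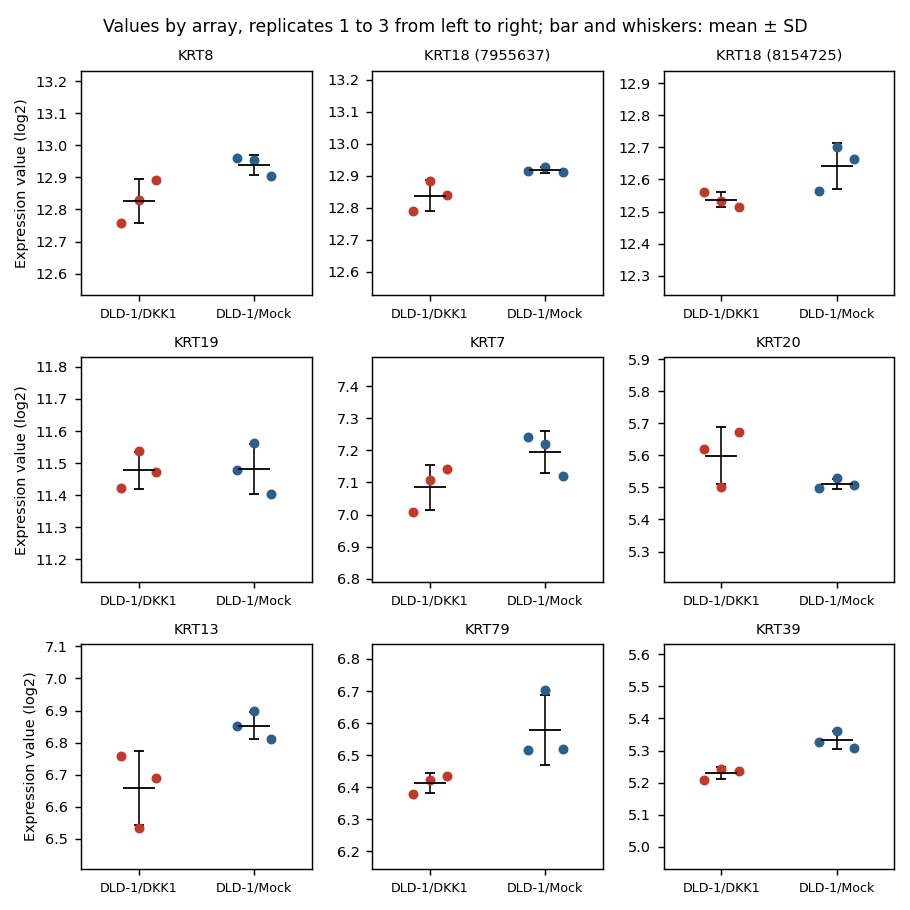
Log2 values of selected keratins on each array, DLD-1/DKK1 left and DLD-1/Mock right in each panel, with a bar for the mean and whiskers for the SD of 3 arrays. KRT8, KRT18, KRT13, KRT79 and KRT39 do not overlap between the groups, while KRT19, KRT7 and KRT20 do.

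Keratins of stratified epithelia had a median log2 fold change of -0.049, with 14 of 17 below 0. KRT13, the type I keratin of the non-cornified lining of mouth and oesophagus, had 6.76, 6.53 and 6.69 in DLD-1/DKK1 cells, against 6.85, 6.90 and 6.81 in DLD-1/Mock cells. The groups did not overlap, with DLD-1/DKK1 replicate 2 the farthest down. The log2 fold change was -0.19 (SE 0.066, 95% interval -0.35 to -0.036), a ratio of 0.874, with a limma adjusted p of 0.499. KRT79, a type II keratin known in mouse from the funnel of the hair follicle, had 6.38, 6.42 and 6.44 in DLD-1/DKK1 cells, against 6.51, 6.70 and 6.52 in DLD-1/Mock cells. Mock replicate 2 was the highest of these, and the groups did not overlap. Its log2 fold change was -0.17 (SE 0.062, 95% interval -0.31 to -0.019, limma adjusted p 0.519).

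The filament partners of stratified epithelia are given side by side. KRT5, the type II keratin of the basal layer, had 5.92, 5.81 and 5.97 in DLD-1/DKK1 cells, against 6.07, 6.08 and 5.97 in DLD-1/Mock cells, a log2 fold change of -0.14 with an SE of 0.058 and a limma adjusted p of 0.546. KRT14, its partner, had 7.64, 7.75 and 7.61 in DLD-1/DKK1 cells, against 7.57, 7.75 and 7.55 in DLD-1/Mock cells, a log2 fold change of 0.039. Both members overlapped between the groups. For the suprabasal pair, KRT1 had a log2 fold change of -0.010 and KRT10 of -0.049.

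The pair of non-cornified epithelia had -0.022 for KRT4 and -0.19 for KRT13. The corneal pair had -0.062 for KRT3 and -0.15 for KRT12, whose values were 5.40, 5.28 and 5.32 in DLD-1/DKK1 cells, against 5.37, 5.57 and 5.50 in DLD-1/Mock cells (SE of 0.063 and limma adjusted p of 0.550 for KRT12). No difference between partners was tested. KRT16, a keratin of wounded and overgrowing epidermis, had -0.076, with 6.93, 7.01 and 6.90 in DLD-1/DKK1 cells, against 7.01, 7.05 and 7.01 in DLD-1/Mock cells. KRT14 and KRT16 share long stretches of sequence with each other and with pseudogenes, so their probe sets may share signal. Log2 fold changes of the other named keratins of this class were -0.058 for KRT76, -0.071 for KRT78 and 0.022 for KRT77.

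**Figure D3:**
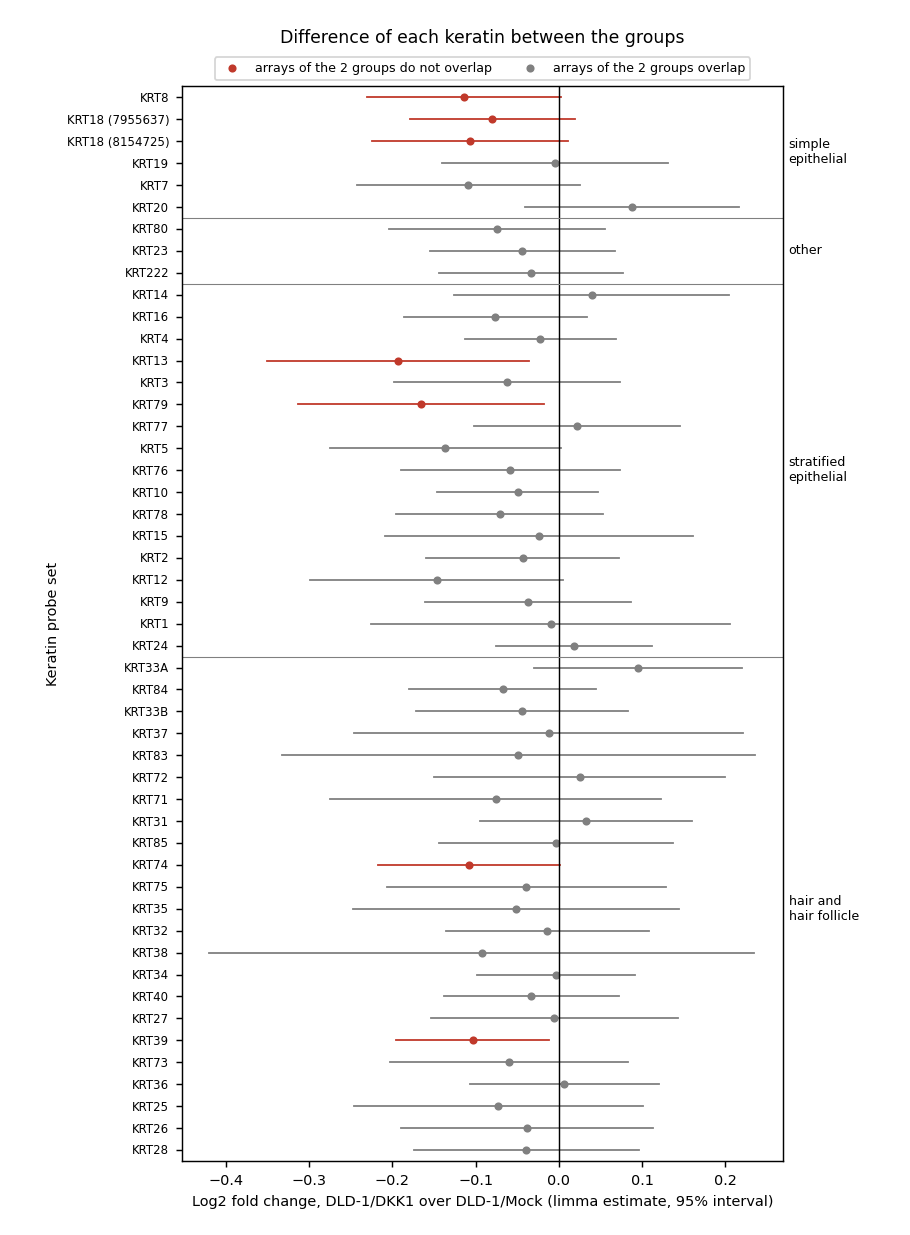
Difference in log2 value, DLD-1/DKK1 minus DLD-1/Mock, of each keratin probe set with its 95% interval from limma (n = 3 arrays each), by class. Red marks probe sets whose arrays do not overlap between the groups. The points run between -0.19 for KRT13 and 0.095 for KRT33A, and intervals of 46 of 49 probe sets include 0, the exceptions being KRT13, KRT79 and KRT39.

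Keratins of hair and hair follicle had a median log2 fold change of -0.039, with 19 of 23 below 0. KRT39, a hair keratin of type I, had 5.21, 5.24 and 5.24 in DLD-1/DKK1 cells, against 5.33, 5.36 and 5.31 in DLD-1/Mock cells. The groups did not overlap, and 79.4% of olfactory receptor probe sets lay below its mean. The log2 fold change was -0.10 (SE 0.038, 95% interval -0.20 to -0.012, limma adjusted p 0.519). KRT74, a type II keratin of the inner root sheath that was singled out after its values were seen, had 6.03, 6.08 and 6.02 in DLD-1/DKK1 cells, against 6.13, 6.22 and 6.11 in DLD-1/Mock cells. Its groups did not overlap either, and its log2 fold change was -0.11, with an SE of 0.045 and a limma adjusted p of 0.545.

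KRT33A, a type I keratin of the hair shaft, lay highest among the keratins by log2 fold change, at 0.095 (95% interval -0.030 to 0.22, limma adjusted p 0.609). Its values were 6.87, 6.95 and 6.97 in DLD-1/DKK1 cells, against 6.77, 6.83 and 6.91 in DLD-1/Mock cells, and the groups overlapped. KRT33B, its near-identical neighbour in sequence, had a log2 fold change of -0.044, and the array may not separate the pair. KRT84, a hair keratin also known from the tongue, had -0.068. KRT38 had the widest interval of the family, -0.42 to 0.234, with 5.72, 6.13 and 5.61 in DLD-1/Mock cells, of which Mock replicate 2 stood apart.

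Of the 3 remaining keratins, all had log2 fold changes below 0. KRT80, a type II keratin found in many epithelia, had 7.44, 7.57 and 7.49 in DLD-1/DKK1 cells, against 7.64, 7.57 and 7.51 in DLD-1/Mock cells, a log2 fold change of -0.074 (limma adjusted p 0.677). KRT23, a type I keratin, had -0.044. KRT222, a keratin-like gene without the full rod domain, had -0.034, and 1.71% of olfactory receptor probe sets lay below its mean. The groups overlapped in all 3.

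Across the family, 7 of 49 probe sets did not overlap between groups, against 16.5% of all probe sets. All 7 had lower values in DLD-1/DKK1, against 8.55% of all probe sets in that direction. None was higher without overlap (0 of 49), against 7.91% of all. These 7 were KRT8, both member probe sets of KRT18, KRT13, KRT79, KRT39 and KRT74, and KRT8 and KRT18 made up 3 of them.

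The sign of the log2 fold change was the most widespread feature. It was below 0 for 41 of 49 keratin probe sets (83.7%), against 53.1% of all probe sets, and the median was -0.044, against -0.006 over all probe sets. Type II keratins had a median of -0.061 with 18 of 20 below 0, and type I keratins one of -0.038 with 23 of 29 below 0. Over the array, the probe sets below the median brightness had 59.2% below 0 and a median of -0.018, and the 350 olfactory receptor probe sets had 66.0% below 0 and a median of -0.028. Probe sets above the median brightness had 47.0% below 0 and a median of 0.0063. Of the keratins, 8 of 10 lay below 0, with a median of -0.075, above the median brightness, and 33 of 39, with a median of -0.044, below it.

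The number of keratins below 0 moved with the scaling and with single arrays. With the arrays centred on their medians, 20 of 49 keratins lay below 0 and their median was 0.0082, against 0.046 over all probe sets, of which 30.5% lay below 0. Quantile normalisation left 30 of 49 below 0, with a median of -0.013, against 50.7% of all probe sets below 0. Cyclic loess left 29 of 49, with a median of -0.0090, against 50.3% of all. The difference between the keratin median and that of all probe sets kept its sign in these settings, all probe sets having -0.0013 after quantile normalisation and -0.00051 after cyclic loess. KRT8, KRT18, KRT13, KRT79 and KRT39 stayed below 0 and KRT20 and KRT33A above 0 under each scaling. Mock replicate 2 was the highest of the 6 arrays for 27 keratins (55.1%), against 28.7% of all probe sets and 31.9% of those below the median brightness. Mock replicate 1 was the highest for 13 (26.5%), against 11.5% of all and 12.4% of those below the median brightness. Without Mock replicate 2, 32 of 49 lay below 0 and the median was -0.024, against 52.8% of all probe sets below 0. Without DLD-1/DKK1 replicate 1 and without Mock replicate 1 it was 35 of 49 each, with medians of -0.055 and -0.050, against 53.4% and 53.3% of all. With any 1 of the other 3 arrays left out it was 38 to 43, against 52.2% to 52.9% of all.

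**Figure D4:**
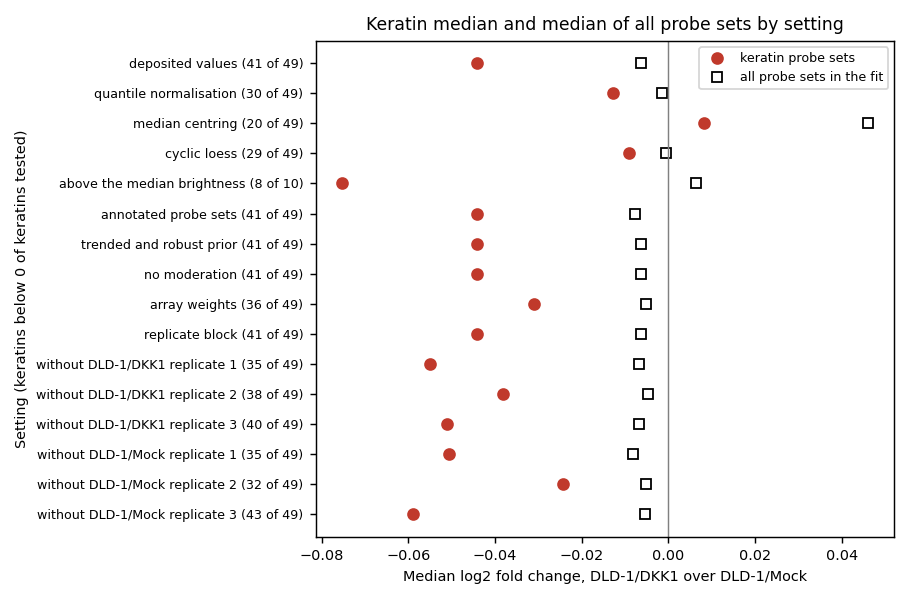
Median log2 fold change (DLD-1/DKK1 minus DLD-1/Mock) of the keratins, filled circles, and of all probe sets fitted, open squares, under each processing alternative and with each array left out. The number of keratins below 0 stands beside each setting. The keratin median runs between -0.075 among probe sets above the median brightness and 0.0082 under median centring, and lies left of the median of all probe sets in each setting. The trended, robust prior, unmoderated variances and the replicate block cannot move either median.

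Transcripts of intermediate filament proteins other than keratins did not pass either. Of 15 other intermediate filament proteins, 0 passed after adjustment, 1 was lower at an unadjusted p under 0.05, against 5.21% of all probe sets, and 13 had log2 fold changes below 0, against 53.1% of all. The median was -0.038. That 1 was SYNM, a partner of vimentin and desmin, with -0.15 (limma adjusted p 0.531). VIM, the intermediate filament of mesenchymal cells, averaged 5.45 in DLD-1/DKK1 and 5.56 in DLD-1/Mock, a level above 85.4% of olfactory receptor probe sets.

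Keratin filaments end at desmosomes and hemidesmosomes. Of 22 measured genes of these junctions, 0 passed, while at an unadjusted p under 0.05 there was 1 with higher and 3 with lower values, against 4.02% and 5.21% of all probe sets, and the median was -0.0036. JUP, the plaque protein plakoglobin, had 10.67, 10.73 and 10.70 in DLD-1/DKK1 cells, against 10.80, 10.89 and 10.89 in DLD-1/Mock cells. Its groups did not overlap, and the log2 fold change was -0.16 (limma adjusted p 0.432). PKP1, a plakophilin mainly of stratified epithelia, had -0.19 (limma adjusted p 0.398). DSP, the desmosomal protein that anchors keratin filaments, averaged 10.90 in DLD-1/DKK1 and 10.87 in DLD-1/Mock.

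Of 17 measured proteins that bind or regulate keratins, 0 passed and the median was 0.018. CASP6, a protease known to cleave KRT18 in apoptosis, was the 1 with an unadjusted p under 0.05, against 4.02% of all probe sets with higher values. It had 9.03, 9.005 and 8.96 in DLD-1/DKK1 cells, against 8.80, 8.72 and 8.88 in DLD-1/Mock cells, a log2 fold change of 0.20 (limma adjusted p 0.409). Of 18 transcription factors known to act on keratin genes, 0 passed and 2 were lower at an unadjusted p under 0.05, against 5.21% of all probe sets, with a median of -0.032. These were GRHL3, a factor of the epidermal barrier, at -0.17 (limma adjusted p 0.407), and ELF3, an epithelial ETS factor, at -0.16 (limma adjusted p 0.512). CDX2, the intestinal homeobox factor, averaged 10.62 in DLD-1/DKK1 and 10.56 in DLD-1/Mock.

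Genes of the cornified envelope and of squamous epithelium, which accompany stratified keratins in the epidermis, also lay mostly below 0. Of 23 genes, 0 passed. At an unadjusted p under 0.05, 6 had lower values, against 5.21% of all probe sets, and 0 had higher ones, against 4.02%. Log2 fold changes below 0 were found for 18, against 53.1% of all probe sets and 59.2% of those below the median brightness, and the median was -0.079. KLK7, a protease that sheds cornified cells, had 6.03, 6.02 and 6.02 in DLD-1/DKK1 cells, against 6.25, 6.33 and 6.20 in DLD-1/Mock cells, a log2 fold change of -0.23 (limma adjusted p 0.276). S100A8, a calcium-binding protein of keratinocytes and myeloid cells, had -0.19 (limma adjusted p 0.398). The summed log2 level of the list was 136.5 to 137.2 over DLD-1/DKK1 arrays and 138.2 to 139.8 over DLD-1/Mock arrays, and 9 of 23 genes were brighter than 95% of olfactory receptor probe sets. Its part in the keratin values was not tested.

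Colonic epithelial markers lay mostly above 0. Of 12, which include KRT8, KRT18, KRT19 and KRT20, 0 passed, 1 was higher at an unadjusted p under 0.05, against 4.02% of all probe sets, and 4 had log2 fold changes below 0, against 53.1% of all. Their median was 0.061, with sums of 122.3 to 122.9 over DLD-1/DKK1 arrays and 122.0 to 122.5 over DLD-1/Mock arrays. CDH17, an intestinal cadherin, was that 1, with 12.01, 12.06 and 11.99 in DLD-1/DKK1 cells, against 11.84, 11.82 and 11.85 in DLD-1/Mock cells, a log2 fold change of 0.18 (limma adjusted p 0.325).

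Markers of cells that a pure line should lack were also read. Of 8 leukocyte markers, 0 passed and 2 were lower at an unadjusted p under 0.05, against 5.21% of all probe sets. These were CD68 at -0.26 and CD14 at -0.27 (limma adjusted p 0.345 and 0.462). Of the 8, 3 were brighter than 95% of olfactory receptor probe sets, with sums of 43.4 to 43.8 over DLD-1/DKK1 arrays and 44.1 to 44.8 over DLD-1/Mock arrays. Of 9 fibroblast markers, 0 had an unadjusted p under 0.05 by limma, and the sums were 50.7 to 51.0 over DLD-1/DKK1 arrays and 50.7 to 51.7 over DLD-1/Mock arrays. Of 6 endothelial markers, 0 did as well, with sums of 34.1 to 34.5 over DLD-1/DKK1 arrays and 34.2 to 35.2 over DLD-1/Mock arrays. Their part in the keratin values was not tested.

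**Figure D5:**
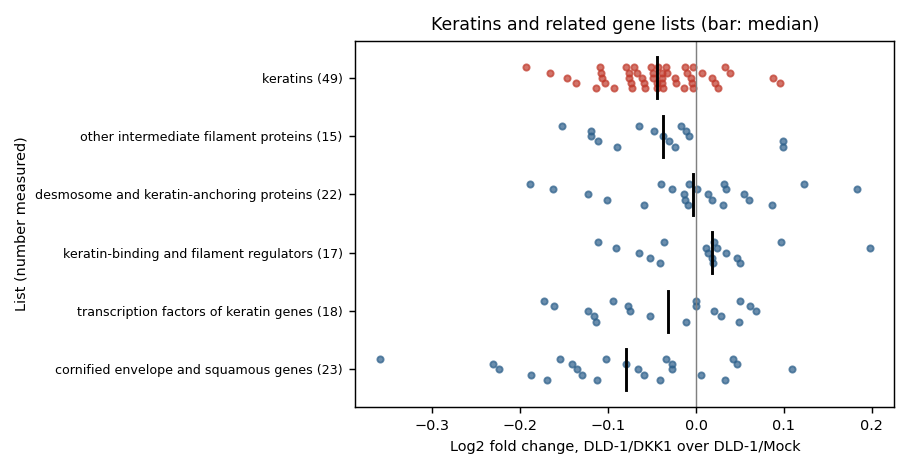
Log2 fold changes (DLD-1/DKK1 minus DLD-1/Mock) of the keratins and of 5 lists of related genes, 1 point per gene (per probe set for keratins), with the median as a bar. Medians run between -0.079 for cornified and squamous genes and 0.018 for keratin-binding and regulating proteins.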

How the data were processed

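RNA of 3 DLD-1/DKK1 and 3 DLD-1/Mock dishes was measured on Affymetrix Human Gene 1.0 ST arrays. The authors made the deposited log2 values by robust multichip averaging, which aims to equalise array distributions and compresses low levels. A shift shared by most transcripts may thus be removed in part. The medians of the deposited arrays still differed, between 6.76 and 6.86, and all 3 DLD-1/DKK1 medians lay below all 3 DLD-1/Mock medians. Tool versions and the annotation build, not given in the sources used here, remain unknown. All values were used without further scaling. The platform annotation gave 1 gene symbol to 19158 of 32321 probe sets, several to 1388 and none to 11775. Of those with 1 symbol, 19128 were found by gene identifier in a RefSeq gene table (GRCh38.p14), whose symbol was then used. A further 3 probe sets shared by a keratin and other genes were not members.

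Samples were grouped by title. Each probe set was fitted with limma 3.58.1 in R 4.3.3 (lmFit and eBayes, 4 residual and 2.56 prior degrees of freedom), two-sided, DLD-1/DKK1 over DLD-1/Mock, with Benjamini-Hochberg adjustment over all probe sets and a threshold of 0.05. Errors are SD over 3 arrays or the moderated SE, and intervals are at 95%. The number of arrays limits the precision. Single values were also tested by an exact permutation test. The members, classes and lists were chosen with earlier results of these data known. Named were DKK1, the simple and unclassed keratins, the members of 6 filament pairs as far as measured, keratins with an unadjusted p under 0.05, the 3 brightest further keratins of the stratified and hair classes, and up to 2 genes per list with the smallest p under 0.05. Alternatives were quantile normalisation, median centring, cyclic loess, filters on brightness and annotation, a trended, robust prior, unmoderated variances, weights per array, the replicate number as a block and each array left out. The steps were tested on simulated data, and figures were drawn with matplotlib 3.10.9.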

Additional observations from a re-analysis of the deposited data

How the results depend on the processing

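The adjusted count of keratins was 0 under every alternative and with each array left out, and 0 of 26 named keratin probe sets passed in any of them (adjusted p between 0.331 and 0.999). The count over all probe sets, 28, was 17 under median centring (10 higher and 7 lower, against 12 and 16), 66 among probe sets above the median brightness, 98 among annotated ones, 53 with a trended and robust prior, 59 with array weights and 1 without moderation. With 1 array left out it was 2 to 6. The unadjusted keratin count was 3, against 9.23% of all probe sets, and that share moved with the setting too. After quantile normalisation the keratin count was 5, against 8.37% of all. These were KRT13, KRT18, KRT20, KRT33A and KRT8, of which 2 were higher and 3 lower in DLD-1/DKK1. The keratin count was again 3, but with 2 higher and 1 lower, under median centring (11.5% of all) and under cyclic loess (8.56%). Above the median brightness it was 1 of 10 keratin probe sets, against 12.6% of all. Among annotated probe sets it was 7, against 11.8%, and with array weights 5, against 10.4%. With 1 array left out it was 1 to 7, against 5.92% to 9.95%. For DKK1, the fit without moderation, which cannot change a log2 fold change, gave an adjusted p of 0.0646 by the unmoderated t-test. The DKK1 log2 fold change of 7.05 ranged between 6.91 and 7.27 with 1 array left out. Median log2 fold changes moved to -0.041 for simple and 0.0082 for unclassed keratins under median centring, and to 0.095 for hair keratins above the median brightness, where 1 was left. With 1 array left out they ran between -0.104 and -0.063 for simple, -0.064 and -0.045 for stratified, -0.053 and -0.0071 for hair and -0.069 and -0.038 for unclassed keratins.

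Of 218 values with no array left out, 203 kept direction and side of the threshold and 15 turned in sign. The filters, the prior, unmoderated variances and the replicate block cannot change a log2 fold change of a probe set. Only quantile normalisation, median centring, cyclic loess and array weights could turn a sign here, so the share that kept its direction is in part fixed in advance. Log2 fold changes above 0 were found for KRT1 (quantile 0.0097, median centring 0.042, cyclic loess 0.014, array weights 0.070), KRT4 (quantile 0.031, centring 0.030, loess 0.026), KRT33B (quantile 0.0021, centring 0.0082, loess 0.0070) and KRT19 (centring 0.048, weights 0.013). Under centring they were also found for KRT10 (0.0031), KRT222 (0.019) and KRT23 (0.0082). With 1 array left out, 148 of 156 values kept direction and side, and the rest belonged to KRT1 (-0.110 to 0.061), KRT14 (-0.0011 to 0.103), KRT19 (-0.043 to 0.036) and KRT77 (-0.016 to 0.059). The causes were not tested. For 17 of 26 named probe sets, among them KRT8, both of KRT18, KRT13, KRT79, KRT39 and KRT20, no scaling, array weighting or array left out turned the sign.

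No pairing of the arrays by the replicate numbers of the labels was seen. Deviations of same-numbered arrays correlated at 0.10, 0.0082 and -0.14, and not every array correlated best with its own number. Deviations from a mean of 3 arrays depend on each other, so these values cannot show that the dishes were unpaired. With the replicate number as a block, 1 probe set passed in all and 0 keratins passed. In that fit 2 keratins (KRT13 and KRT79) had an unadjusted p under 0.05 by limma, against 7.52% of all probe sets. Of the keratins, 39 of 49 lay below the median brightness of the array, where values are compressed, which limits what can be read of small differences.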

Other observations

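Probe sets that were not members but carry a keratin name gave mixed values. The pseudogene KRT8P41 had log2 values of 6.70, 6.77 and 6.76 in DLD-1/DKK1 cells, against 6.96, 6.85 and 6.83 in DLD-1/Mock cells, a log2 fold change of -0.14 (limma adjusted p 0.516) without overlap. A probe set annotated to both MIR622 and KRT18 had 12.59, 12.60 and 12.71 in DLD-1/DKK1 cells, against 12.64, 12.69 and 12.50 in DLD-1/Mock cells, a log2 fold change of 0.022 with overlap, while the 2 probe sets annotated to KRT18 alone had -0.080 and -0.107. KRT10-AS1, an antisense transcript at KRT10, had a log2 fold change of 0.20, with SDs of 0.229 in DLD-1/DKK1 and 0.232 in DLD-1/Mock (n = 3 each).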
